A study of Homo sapiens with 2 samples.

Results

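Isolated intervals are the nascent strand intervals that have no other interval, of any timing class, within 100 kb on either side. They were found by pooling the deposited lists of the 6 replication timing classes, taking 1 interval per name, and keeping those on chromosomes 1 to 22 whose preceding and following intervals both lay 100000 bp or more away, measured from end to start. There were 1842 such intervals among 159490 named intervals on these chromosomes (1.15%) and 161869 in the whole series. The 44 first and last intervals of the chromosomes have a neighbour on 1 side only and could not be members. Members were thus chosen by the measured positions of the intervals, that is, by distance, so flank lengths are given below as a description, and timing class, width and enrichment, which the rule did not use, were compared with the 157648 other intervals.

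The material was U2OS, an osteosarcoma cell line labelled WT, held at the G1/S border by a double thymidine block and sampled 2 hours after thymidine was taken away. Short nascent DNA was purified by size and by digestion with lambda exonuclease, which spares strands that start with an RNA primer, and was sequenced as 2 libraries. Both libraries form 1 group with the same block and release. The deposited peak list holds the pieces where peaks of both libraries overlap. The intervals of the timing lists reach beyond these pieces, which covered a median of 60.1% of the bases of an isolated interval. No label says that the libraries came from separate cultures, no undigested or unsynchronised control was analysed here, and the read depth behind the peaks is unknown. The errors below are spreads between chromosomes within the 1 shared set.

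Replication of human chromosomes begins at many origins, which are loaded with MCM helicase in G1 and of which only some fire in a given S phase. Early replicating chromatin is generally open, gene-rich and rich in origins, whereas late replicating chromatin is generally compact, gene-poor and poor in them. Stretches with few origins depend on forks that travel far, and common fragile sites are among the best known examples. Sequences and genes at the intervals were not analysed here because no genome or annotation of the build hg19, used by the files, was at hand.

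Isolated intervals were sparse, yet the gaps beside them took up a large part of the genome. The shorter of the 2 flanks of a member had a median of 149 kb, with quartiles of 119 and 209 kb. The longer flank had a median of 294 kb, with quartiles of 194 and 478 kb. Of the members, 504 (27.4%) had at least 200 kb on both sides, 59 (3.20%) had at least 500 kb, and 2 had at least 1000 kb. There were 5125 gaps of 100 kb or more between neighbouring intervals, and 2793 of them (54.5%) bordered a member. Together these 2793 gaps measured 809.8 Mb, or 29.0% of the 2795 Mb from the first to the last interval of each chromosome. The members themselves covered 0.813 Mb. A flank exceeded 1 Mb in 97 members and 3 Mb in 10, and assembly gaps and unmappable sequence inside the flanks were not tested.

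**Figure D1:**
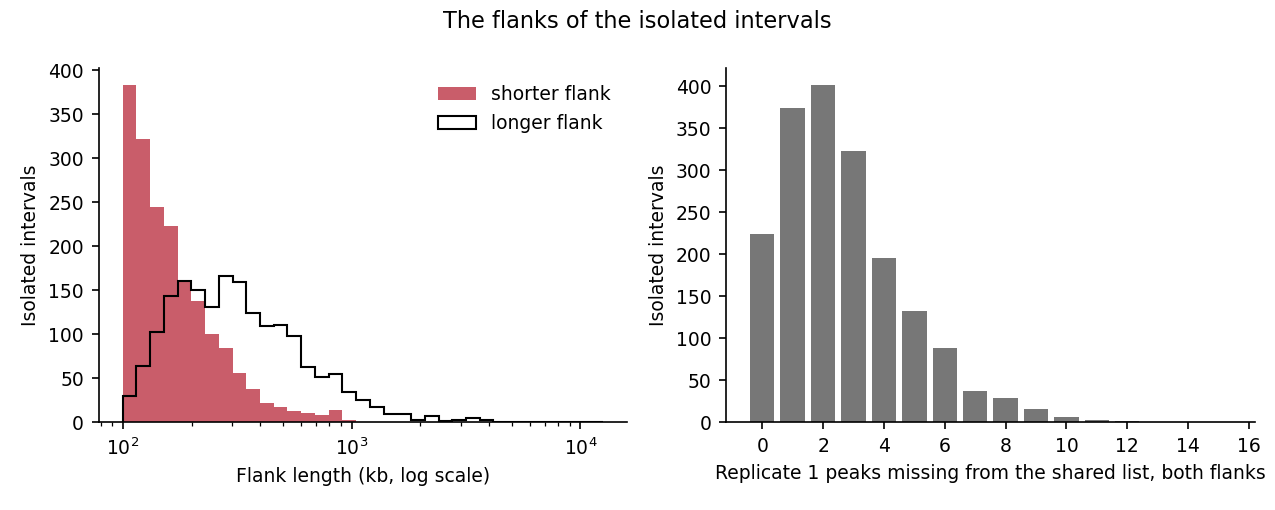
Left, histogram of the shorter (filled) and longer (outline) flank of the 1842 isolated intervals, in kb on a log axis, with counts of intervals on the vertical axis. Right, number of isolated intervals by how many replicate 1 peaks missing from the shared list lie in both flanks together, for the 1834 members with peak numbers on both sides. Shorter flanks crowd towards the limit of 100 kb, with a median of 149 kb, and 224 members had 0 missing peaks.

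Many of the flanks were not empty in replicate 1. Every enrichment in the deposited peak list belongs to a numbered peak of replicate 1, and numbers missing between listed neighbours show how many replicate 1 peaks were not shared with replicate 2. Of 1834 members with a number on both sides, 1610 (87.8%) had 1 or more such missing peaks in their flanks, with a median of 2, quartiles of 1 and 4 and a maximum of 15. The other 224 (12.2%) had none. These were isolated in replicate 1 too if its peaks were numbered consecutively and no shared peak outside the timing lists lay within 100 kb. Counting such shared peaks as neighbours removed 4 of all members. The flanks held 0.445 missing peaks per 100 kb, against 0.586 in all gaps of 100 kb or more, whether or not they border a member, and 4.23 in gaps under 100 kb. In the rate for flanks, a gap between 2 members counts for each of them, while the other rates count each gap singly. All these values are a description, because sharing between libraries decides which intervals have a neighbour.

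Isolated intervals belonged mostly to the late part of the timing programme. The late class held 521 of them (28.3%), the mid late class 508 (27.6%) and the very late class 421 (22.9%). The mid early class held 221 (12.0%), the early class 117 (6.35%) and the very early class 54 (2.93%). Late and very late intervals together made up 51.1% of the members (exact 95% binomial interval 48.8% to 53.4%) and 7.17% of all other intervals (7.05% to 7.30%). Such binomial bounds reflect counting error alone and take neighbouring intervals to be independent. Both libraries were sampled 2 hours after thymidine was taken away, and no later time in S phase was analysed here. Whether the shares of late and very late intervals, here and below, depend on this sampling time was not tested. Seen from the classes, 12.3% of very late and 5.91% of late intervals were isolated, against 1.45% of mid late, 0.465% of mid early, 0.282% of early and 0.235% of very early intervals.

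**Figure D2:**
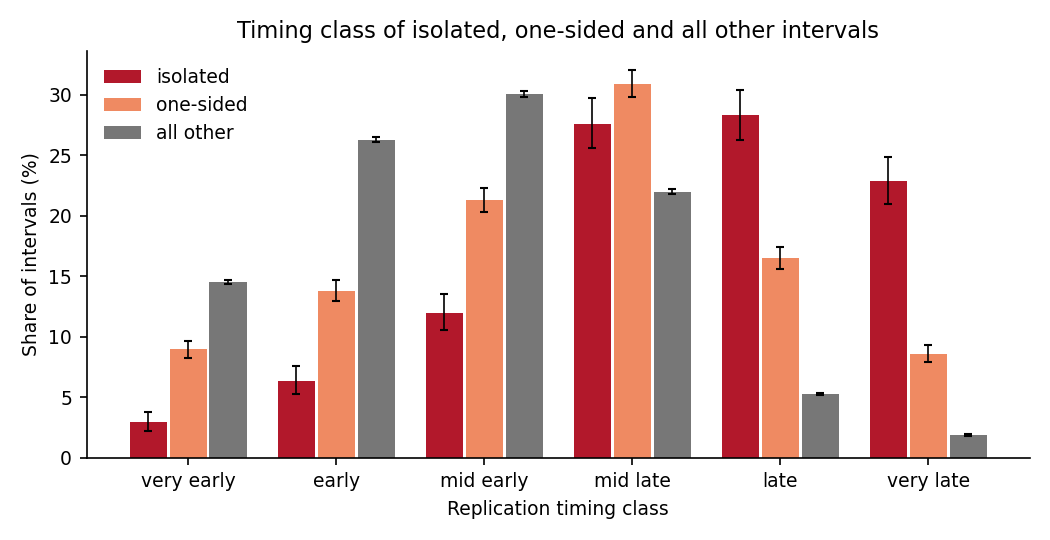
Share of isolated, one-sided (100 kb or more on 1 side only) and all other intervals in each of the 6 timing classes, in percent of each set; error bars are exact 95% binomial intervals and cover counting error only. The isolated set peaks in the mid late and late classes, at 27.6% and 28.3%, and all other intervals in the mid early class, at 30.0%.

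The shift towards late classes recurred on all 21 chromosomes that held at least 5 members; chromosome 22, with 2, was left out of the tests. On these chromosomes the late and very late share was 51.5 ± 10.7% among members and 7.78 ± 3.71% among others (mean ± SD, n = 21 chromosomes). The difference was 43.7 percentage points (two-sided sign-flip permutation test over chromosomes, adjusted p = 1.57e-05). The share of the 3 earlier classes was lower by the same test, at 20.7 ± 9.49% against 68.4 ± 9.44% (permutation test, adjusted p = 1.57e-05, with the share lower on 21 of 21). The test flips the sign of each chromosome's difference 100000 times, and its smallest unadjusted p is 1e-05, which these comparisons reached. Chromosomes are not biological replicates, so it asks only whether a difference recurs over the genome. On the 21 chromosomes the late and very late share among members ran from 31.2% on chromosome 17 (16 members) and 36.9% on chromosome 12 (103 members) to 82.1% on chromosome 16 (28 members). Spacing and timing class are also related over the whole set of intervals, so the late shift of members is not independent evidence of that relation.

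Isolated intervals were narrow. Their median width was 308 bp, with quartiles of 204 and 544 bp and a range of 60 to 5267 bp, and the other intervals had a median of 563 bp with quartiles of 297 and 1065 bp. On chromosomes, the median width was 301 ± 33.3 bp among members and 549 ± 66.8 bp among others (mean ± SD, n = 21), a ratio of 0.549 that was below 1 on 21 of 21 (permutation test, adjusted p = 1.57e-05). Chromosome medians of members lay between 201.5 bp (chromosome 20, 6 members) and 345 bp (chromosomes 18 and 21). Those of other intervals lay between 458 bp (chromosome 13) and 715 bp (chromosome 19), so the 2 ranges did not overlap. Intervals of 1000 bp or more made up 7.17% of members (132) and 27.2% of others. Intervals under 200 bp made up 23.5% of members (433) and 11.2% of others. Among intervals 100 kb or more from a neighbour on 1 side only, 10.7% had 1000 bp or more and 22.2% were under 200 bp. The high share of short intervals is thus not particular to members.

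Members were narrow within timing classes too. Against the median of other intervals of the same class on the same chromosome, members were 0.612-fold as wide (log2 ratio −0.71 ± 0.23, SD, n = 21), again on 21 of 21 chromosomes (permutation test, adjusted p = 1.57e-05). Median widths of members ranged over the classes from 296 bp in the late class to 372 bp in the very early class, while those of other intervals ran from 431 bp (very late) to 605 bp (mid early). Members of the 3 earlier classes were 1.11-fold as wide as late and very late members, a difference that did not pass the test (log2 ratio 0.15 ± 0.57, SD, n = 17 chromosomes with at least 5 of each, permutation test, adjusted p = 0.353). With isolation set at 50 kb this difference passed (log2 ratio 0.23, n = 20, permutation test, adjusted p = 0.00231).

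**Figure D3:**
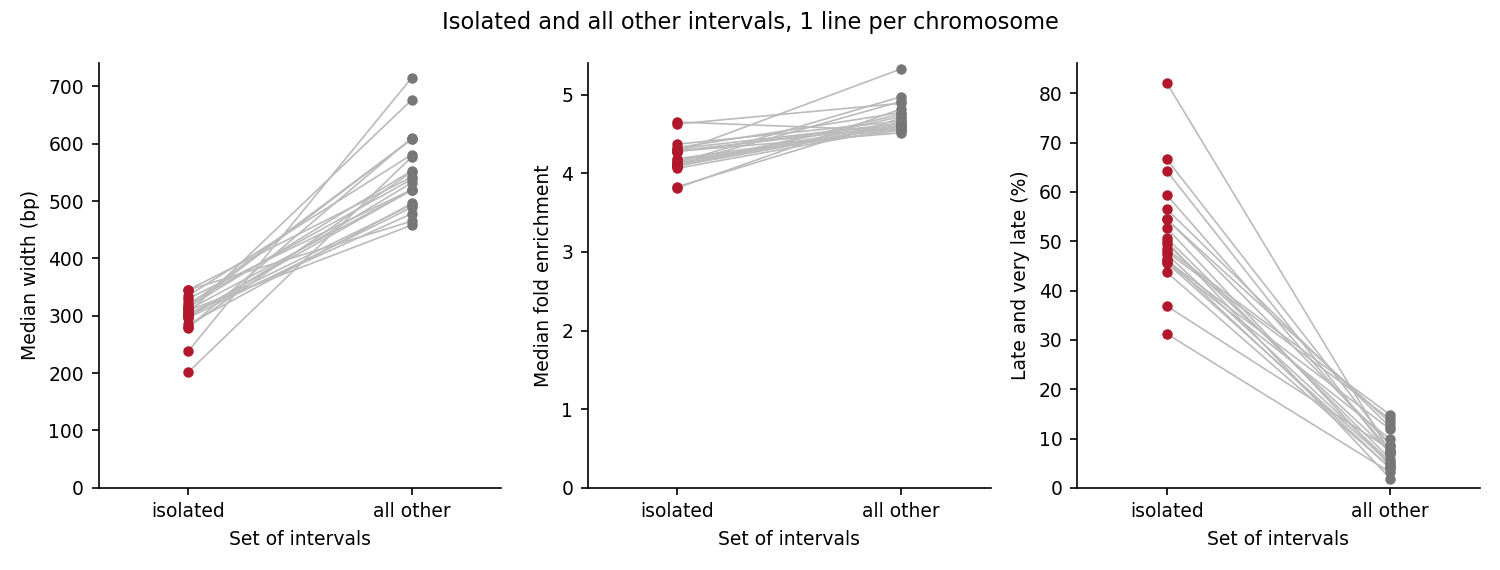
Median width in bp, median fold enrichment and share of late and very late intervals in percent, for isolated and all other intervals; each line joins the values of 1 of 21 chromosomes. Width is lower among isolated intervals on all 21, enrichment on 20, and the late share is higher on all 21.

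Enrichment was slightly lower in isolated intervals. The fold enrichment is the authors' value for the replicate 1 peak that shares most bases with an interval, and 4 members had no such peak. Over the other 1838, the median was 4.19-fold, with quartiles of 3.53 and 5.24 and a range of 1.87 to 42.1, against a median of 4.74-fold with quartiles of 3.79 and 6.39 for other intervals. On chromosomes the medians were 4.20 ± 0.20 and 4.72 ± 0.19 (mean ± SD, n = 21), a ratio of 0.891, with members lower on 20 of 21 (permutation test, adjusted p = 1.57e-05). Chromosome 18 was the exception, at 4.65 for its 48 members and 4.54 for the rest. The −log10 q of the same peaks had chromosome medians of 3.92 ± 0.42 and 5.16 ± 0.41 (lower on 21 of 21, permutation test, adjusted p = 1.57e-05). Peaks with a −log10 q below 2 were 9.96% of members (183) and 5.75% of all others, in a list whose lowest value was 1.31. They were 10.1% of the intervals that were 100 kb or more from a neighbour on 1 side only, so this share is not particular to isolated intervals.

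The difference in enrichment was somewhat smaller with class held alike, where it still passed the test, and smaller again at like width. Against other intervals of the same class on the same chromosome, members were 0.923-fold as enriched (log2 ratio −0.11 ± 0.07, SD, lower on 20 of 21, permutation test, adjusted p = 4.12e-05). Against other intervals of the chromosome within 10% of their width, members were 0.981-fold as enriched, which did not pass the test (log2 ratio −0.03 ± 0.07, SD, lower on 15 of 21, permutation test, adjusted p = 0.132). That comparison passed in several other settings, among them without chromosome 18 (log2 ratio −0.03, permutation test, adjusted p = 0.0286) and with means of log2 values (−0.06, adjusted p = 0.00107). In the reverse comparison, at like enrichment, members were 0.614-fold as wide on 21 of 21 chromosomes (permutation test, adjusted p = 3.5e-05). Among the 224 members with no missing replicate 1 peak in their flanks, the overall difference in enrichment no longer passed (log2 ratio −0.09 ± 0.18, SD, n = 14 chromosomes, permutation test, adjusted p = 0.109).

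Few isolated intervals were cut into several pieces, and the share of bases covered by both libraries did not differ past the threshold. In 73 members (3.96%) peaks of both libraries met in 2 or more pieces, against 15.5% of all other intervals and 4.98% of those with a gap of 100 kb or more on 1 side only. Low shares were also seen nearer to neighbours, with 5.002% at 10 to 50 kb and 4.48% at 50 to 100 kb from the nearer one. On chromosomes the share was lower by 11.04 percentage points (3.65 ± 2.64% against 14.7 ± 3.07%, lower on 21 of 21, permutation test, adjusted p = 1.57e-05). Members were also narrower, and the number of pieces was not compared at like width. Peaks of both libraries covered a median of 60.2 ± 5.82% of the bases of members and 59.9 ± 1.26% of those of others (n = 21, permutation test, adjusted p = 0.803). This last comparison had no stable direction. With intervals of at least 200 bp only, members were lower by 3.79 points (permutation test, adjusted p = 0.00649), and with a −log10 q of at least 5 they were higher by 3.38 points (adjusted p = 0.032).

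**Figure D4:**
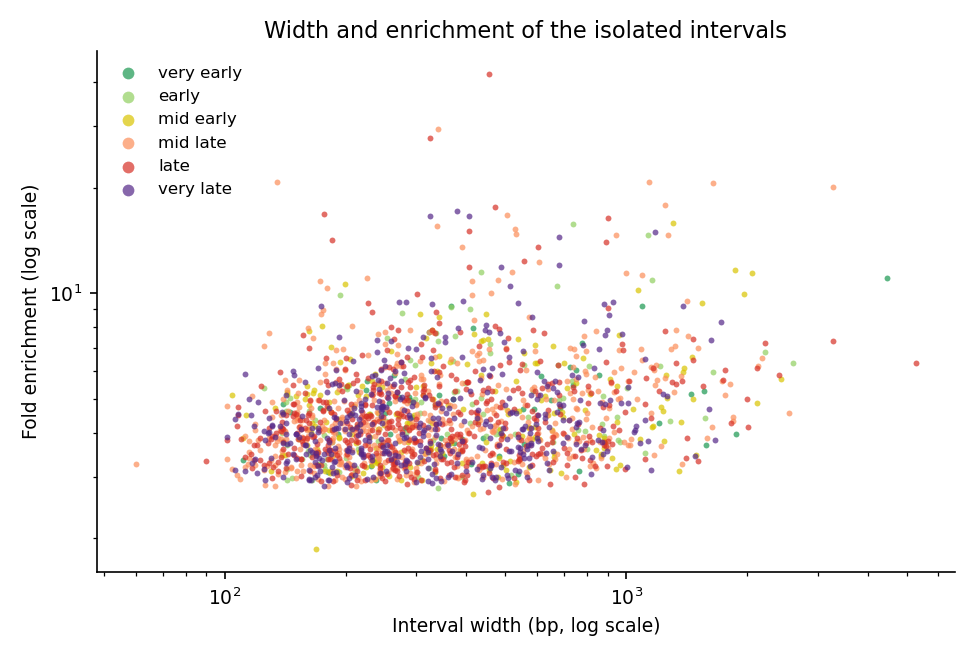
Width (bp) and fold enrichment, both on log axes, of the 1838 isolated intervals with a replicate 1 peak; each point is 1 interval, coloured by timing class. The quartiles over all members are 204 and 544 bp and 3.53 and 5.24-fold, and 7 reach 20-fold or more.

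The distances over which width and class varied were different. Median width by distance to the nearer neighbour was 741 bp under 1 kb, 538 bp from 1 to 5 kb, 394 bp from 5 to 10 kb and 349 bp from 10 to 50 kb. It was 326 bp from 50 to 100 kb, 306 bp for members at 100 to 200 kb and 311 bp for members at 200 kb or more. Most of the decline in width thus lay below 10 kb, and median enrichment took a like course, from 5.16 under 1 kb to 4.19 at 10 to 50 kb, 4.23 at 100 to 200 kb and 4.11 at 200 kb or more. The late and very late share instead moved mainly above 50 kb. It was 5.38% under 1 kb, 9.30% at 5 to 10 kb and 12.2% at 10 to 50 kb, then 26.3% at 50 to 100 kb, 45.6% among members at 100 to 200 kb and 65.9% among members at 200 kb or more. Very early intervals were 13.2% of those under 1 kb and 0.992% of those at 200 kb or more. Within the members, Spearman's rho of the shorter flank was 0.006 with width and −0.023 with enrichment (n = 1842 and 1838, across intervals that share the same libraries). These values by distance are a description.

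**Figure D5:**
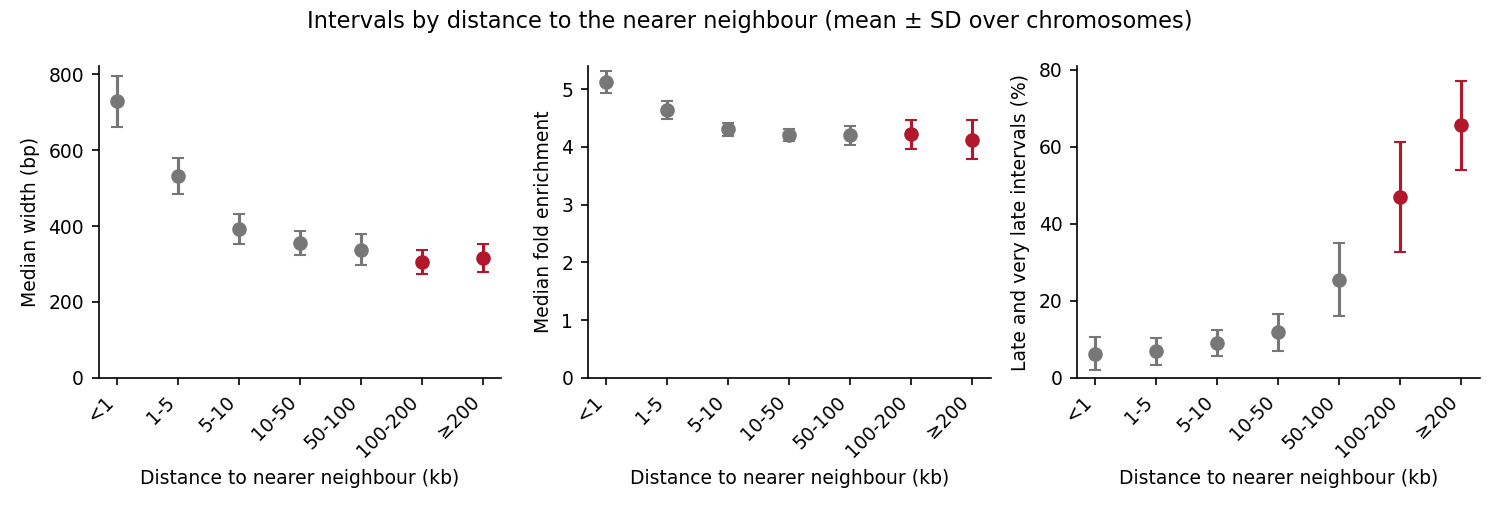
Median width (bp), median fold enrichment and share of late and very late intervals (%) by distance to the nearer neighbour (kb); points are means and bars SD over chromosomes with at least 5 intervals in the bin, and the isolated intervals are in red. Width falls from 729 to 355 bp between the bins under 1 kb and 10 to 50 kb, and the late share climbs from 11.9% at 10 to 50 kb to 65.5% at 200 kb or more.

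Intervals with a gap of 100 kb or more on 1 side only, of which there were 6566, are the set closest to members in definition. Members were narrower than these one-sided intervals (301 ± 33.3 against 334 ± 26.4 bp, ratio 0.899, narrower on 18 of 21 chromosomes; permutation test, adjusted p = 7e-04). This difference did not pass with isolation at 200 kb (log2 ratio −0.04, permutation test, adjusted p = 0.594). It did not pass for members without missing replicate 1 peaks either (log2 ratio −0.01, permutation test, adjusted p = 0.954). Enrichment was 4.20 ± 0.20 in members and 4.22 ± 0.12 in one-sided intervals, which did not pass the test (lower on 12 of 21, permutation test, adjusted p = 0.508), but passed with means of log2 values (log2 ratio −0.04, adjusted p = 0.0123). The late and very late share differed between the sets, at 51.5 ± 10.7% against 25.7 ± 7.51%, higher in members on 21 of 21 chromosomes (permutation test, adjusted p = 3.5e-05).

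Each member was also set against its own preceding and following interval. Every such neighbour has a long gap on that side by the rule, and 891 gaps lay between 2 members, so many neighbours are members themselves and likeness is partly built in. Against the geometric mean of the preceding and following interval, the median member was 0.943-fold as wide (log2 ratio −0.09 ± 0.16, SD, lower on 17 of 21, permutation test, adjusted p = 0.0167) and 0.967-fold as enriched (log2 ratio −0.05 ± 0.05, SD, lower on 17 of 21, permutation test, adjusted p = 7.09e-04). Neither passed with means in place of medians (log2 ratios −0.03 and −0.01, permutation tests, adjusted p = 0.648 and 0.572). These ratios measure a shift and not how alike single members and neighbours were, so they cannot be ranked against likeness in timing class. By class, 481 members (26.1%) matched both neighbours, 823 (44.7%) matched 1 of them and 538 (29.2%) matched neither. Of other intervals, 80.2% matched both. A neighbour 2 or more classes away was seen for 247 members (13.4%) and for 0.638% of other intervals. These shares were not tested, and the gaps beside members are by definition longer.

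Members of the earliest class mostly lay in early surroundings. Of the 54 very early members, 50 had both neighbours in the 3 earlier classes, 4 had 1 such neighbour, and 0 had both neighbours in the late or very late class. Their median width was 372 bp and their median enrichment 4.68-fold, against 530 bp and 4.62-fold for other very early intervals, a pair of values that was not tested. Of the 421 very late members, 364 had late or very late neighbours on both sides and 180 (42.8%) had very late ones on both. Of the 508 mid late members, 336 had no neighbour in the 3 earlier classes. Such counts were not made for other intervals of these classes, so they do not set members apart.

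Many isolated intervals had an isolated neighbour. The members formed 951 uninterrupted runs, of which 525 were single intervals and 426 held 2 or more. Thus 1317 members (71.5%) had at least 1 neighbour that was itself isolated. By the rule every neighbour of a member has a long gap on that side, so such runs are partly built in. The share was not compared with an expected one. The run with most members was on chromosome 1 from 186887052 to 191276275, where 12 isolated intervals, 6 late and 6 very late, were spread over 4.39 Mb, with enrichments of 3.05 to 7.70. Runs of 11 members lay on chromosome 4 from 61953605 to 64434426, on chromosome 6 from 93747057 to 99140808 and on chromosome 9 from 23237898 to 26108723, and spanned 2.48, 5.39 and 2.87 Mb. In these 3 runs 7, 8 and 6 members were very late, and none was in the 3 earlier classes. A further run of 10 was on chromosome 1 from 192400625 to 197343488. Positions are in hg19, and the genes in these stretches were not analysed here.

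The chromosomes differed widely in how many of their intervals were isolated. These shares were not tested, and the density of intervals along a chromosome was not held alike. Chromosome 4 had the most, 230 of 4223 intervals (5.45%), and chromosome 13 a like share, 107 of 2035 (5.26%). Chromosome 3 held 184 (2.34%), chromosome 2 held 170 (1.31%) and chromosome 5 held 163 (2.26%). At the other end, 2 of 6579 intervals were isolated on chromosome 22 (0.0304%), 6 of 8675 on chromosome 19 (0.0692%), 6 of 7147 on chromosome 20 (0.084%) and 16 of 9828 on chromosome 17 (0.163%). Chromosomes 17, 19 and 22 are known as gene-rich, and chromosomes 4, 13 and 18 as gene-poor. Chromosome 18 had 48 isolated intervals of 3133 (1.53%), a smaller share than chromosomes 3, 5, 6 (2.02%) and 21 (1.94%).

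A few isolated intervals were strongly enriched. Enrichment of 20-fold or more was reached by 7 members (0.381%), 5 of them mid late and 2 late, against 0.912% of other intervals. Enrichment of 10-fold or more was reached by 53 (2.88%) against 7.22%. Intervals 100 kb or more from a neighbour on 1 side only had shares of 0.533% and 3.43%, so low shares are not particular to members. None of these shares was tested. The strongest was a late interval on chromosome 6 from 121511213 to 121511667, 455 bp wide at 42.1-fold, whose neighbours 264 and 199 kb away had 5.82-fold and 4.39-fold. Next came chromosome 3 from 173113516 to 173113854, mid late, at 29.5-fold, and a late one on the same chromosome from 35681011 to 35681335 at 27.8-fold. Both were narrow, at 339 and 325 bp. On chromosome 12 a mid late interval from 20704356 to 20705494 reached 20.8-fold, with no missing replicate 1 peak in its flanks of 182 and 211 kb. A mid late interval of only 135 bp on chromosome 11, from 84868904 to 84869038, reached 20.7-fold and lay wholly within peaks of both libraries. On chromosome 1 the mid late interval from 215255130 to 215256775 had 20.7-fold, but peaks of both libraries covered only 30.9% of it. The mid late interval on chromosome 4 from 102266695 to 102269965 had 20.04-fold, a width of 3271 bp and flanks of 901 and 895 kb, in which 10 replicate 1 peaks were missing from the shared list. The last 3 of the 10 most enriched members were a mid late interval on chromosome 8 at 17.9-fold, a late one on chromosome 2 from 198956595 to 198957065 at 17.6-fold and a very late one on chromosome 12 from 84567694 to 84568072 at 17.2-fold. None of these 10 was in the 3 earlier classes, which held 21.3% of all members. The neighbours of the 10 had enrichments of 2.98 to 7.88, all below the weakest of the 10. The 10 were picked for high enrichment, so this contrast is a description.

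The 392 members of the 3 earlier classes had a median enrichment of 4.42-fold, and the 942 late and very late members 4.13-fold. The ratio of chromosome medians was 1.05 and did not pass the test (log2 ratio 0.07 ± 0.16, SD, n = 17, permutation test, adjusted p = 0.132), but passed with isolation at 50 kb (log2 ratio 0.07, n = 20, adjusted p = 0.00463). The highest single values of the earlier classes follow. The very early class was led by an interval on chromosome 7 from 92461965 to 92466433 at 11.03-fold, 4469 bp wide and cut into 5 shared pieces. In the early class the highest value was 15.8-fold, on chromosome 2 from 37192960 to 37193694, with flanks of 125 and 139 kb free of missing replicate 1 peaks. In the mid early class it was also 15.8-fold, on the same chromosome from 139258928 to 139260237. The lowest enrichment of all members, 1.87-fold, was that of a mid early interval of 169 bp on chromosome 8 with a flank of 3084 kb on 1 side.

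The 5 widest members all had enrichments above the upper quartile of members, 5.24, and those on chromosomes 4 and 7 are described above. The widest was a late interval on chromosome 10 from 38894083 to 38899349, 5267 bp wide at 6.32-fold, of which peaks of both libraries covered 48.1%. A late interval on chromosome 4 from 62065595 to 62068872 had 3278 bp and 7.33-fold, and lay in the run of 11 members on that chromosome. An early interval on chromosome 3 from 110789042 to 110791648 had 2607 bp and 6.32-fold.

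The most remote members were of middling strength. The farthest from its nearer neighbour was the mid late member on chromosome 18 from 25757984 to 25758346, with flanks of 1314 and 2174 kb, a width of 363 bp and 4.27-fold enrichment. The late interval on chromosome 4 from 136327922 to 136328487 had flanks of 1078 and 1035 kb and 4.81-fold. Next were chromosome 13 from 67730407 to 67730667 (late, 4.16-fold, nearer neighbour at 925 kb), chromosome 14 from 83476686 to 83476825 (very late, 4.54-fold, 914 kb) and chromosome 6 from 128840375 to 128842223 (mid late, 4.44-fold, 896 kb). All 5 lay between the quartiles of members in enrichment, 3.53 and 5.24. At the limit of 100 kb, the members just inside were a mid early interval on chromosome 2 from 159312891 to 159314858, 100042 bp from its nearer neighbour at 9.94-fold, and an early one on chromosome 9 from 74062252 to 74063367, 100086 bp away at 3.50-fold. Just outside were a late interval on chromosome 7 from 8721598 to 8721785, 99951 bp away at 3.42-fold, and a mid early one on chromosome 12 from 71957059 to 71957246, 99948 bp away at 3.93-fold.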

How the data were processed

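Per the submitters' processing notes, reads were handled with BWA and MACS2 on hg19; versions, parameters, use of a control library and the assignment of timing classes are given nowhere in the sources used here. The deposited peak list gives 1 fold enrichment (a ratio) and 1 −log10 q per replicate 1 peak, per the peak names, and was cut to the parts shared with replicate 2. The deposited score is constant at 1000 in the timing lists and was not used. Of 183632 lines in these lists, lines of 1 name were joined into 1 interval. Each interval took the values of the listed peak with the largest overlap, at least 1 bp.

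Chromosome medians or shares of isolated and other intervals (at least 5 and 20) were compared by flipping signs over chromosomes. This two-sided permutation test used 100000 resamples. It was checked on simulated data for width only, with widths shuffled within chromosomes, and not for the other comparisons. Benjamini-Hochberg adjustment was made over 11 planned comparisons and, separately, over 7 chosen after the data were examined (one-sided intervals, like width, like enrichment, early against late members). The members and lists were chosen with earlier results of these data known. Intervals were named by rule: highest fold overall (10) and per class, 5 widest, 5 most remote, the nearest to the limit, and the lowest fold; the longest runs were chosen after their values were seen. The distance, neighbours, peak strength, width, chromosome set, summary and each chromosome were varied. The tools were pandas 2.3.3 and numpy 2.4.6 under Python 3.11.15, with scipy 1.17.1 for binomial intervals and matplotlib 3.10.9 for plots.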

Additional observations from a re-analysis of the deposited data

Results flagged for a closer look

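Chromosome X, which the rule for members leaves out, held 167 isolated intervals among 2280 (7.32%), and is listed here because no comparison above uses it. They had a median width of 275 bp against 511 bp for the other intervals of that chromosome, a median enrichment of 4.07-fold against 4.73-fold, and 46.7% of them were late or very late, against 8.14%. These values were not tested on this chromosome alone.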

How the results depend on the processing

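The number of isolated intervals was 4499 at an isolation distance of 50 kb and 504 at 200 kb. Of the 1842 members, 641 had a −log10 q of at least 5 and 224 had no missing replicate 1 peaks in the flanks. Both of these filters kept isolation as defined on the full list. Lower width, lower width at like class or like enrichment, the shift from earlier to late classes, also against one-sided intervals, and fewer cut intervals kept direction and call in every setting tried. Values that follow are mean log2 ratios unless points are named. Against neighbours, width gave −0.026 at 50 kb, −0.12 at 200 kb, −0.087 at a −log10 q of at least 5, −0.026 with means and −0.0028 without missing peaks, and enrichment gave −0.057 at 200 kb, −0.24 at a −log10 q of at least 5, −0.0074 with means and −0.077 without missing peaks, all past the threshold no longer. Without missing peaks the same held for enrichment (−0.092), −log10 q (−0.23), enrichment at like class (−0.017) and width against one-sided intervals (−0.0052), the last also at 200 kb (−0.041). Newly past the threshold were enrichment at like width (−0.042 at 50 kb, −0.061 at a −log10 q of at least 5, −0.047 with at least 200 bp, −0.064 with means), enrichment against one-sided intervals (−0.057 at a −log10 q of at least 5, −0.043 with means), early against late members in width (0.23 at 50 kb, 0.28 with at least 200 bp) and in enrichment (0.074 at 50 kb), and shared bases (3.38 points at a −log10 q of at least 5). Reversed were shared bases (−3.79 points with at least 200 bp, −3.51 points without missing peaks) and enrichment against one-sided intervals (0.046 without missing peaks). The cause was not tested. Leaving out each chromosome in turn gave −0.034 to −0.020 for enrichment at like width, and −0.47 (without chromosome 20) to 0.91 points for shared bases; no planned call was lost. No paired analysis was possible because the series has 1 group, and leaving out a library was not possible in lists built from both libraries together. Read depth is unknown, so its limit on narrow or weak intervals cannot be given.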

Other observations

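Agreement in timing class between neighbouring intervals declined with the length of the gap between them. Both intervals had the same class in 98.2% of 40129 pairs less than 1 kb apart, 77.2% of 27906 pairs 10 to 50 kb apart, 50.8% of 3158 pairs 100 to 200 kb apart and 43.5% of 1967 pairs 200 kb or more apart. Classes differed by 2 or more steps in 0 pairs under 10 kb and in 10.1% of pairs at 200 kb or more.

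Replicate 1 peaks missing from the shared list were most frequent in gaps of 1 to 5 kb, at 10.7 per 100 kb. They numbered 8.09 per 100 kb in gaps of 5 to 10 kb, 3.68 at 10 to 50 kb, 1.57 at 50 to 100 kb, 0.947 at 100 to 200 kb and 0.407 at 200 kb or more. In gaps under 1 kb, 89 were missing in 40088 gaps.

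Width and enrichment were less closely related among isolated intervals than among the rest, with Spearman's rho of 0.22 over 1838 members and 0.42 over 157507 others. Both come from the same libraries, and the difference was not tested.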
